A study of Mus musculus with 2 samples.

Results

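The genes described here encode Wnt ligands, Frizzled receptors, the co-receptors Lrp5 and Lrp6, the secreted antagonists of the Sfrp and Dickkopf families, and the Axin scaffold proteins. These families were picked with earlier results of these data known. Their genes were then found by symbol in the array's annotation, keeping probe sets that name 1 gene, which gave 43 genes on 44 probe sets out of 19946 genes measured. All 19 Wnt genes, 10 Frizzleds, 4 Sfrp genes, 5 Dickkopf genes, both co-receptors and both Axins were covered, together with Fzd10os, a noncoding gene whose name also matched. The cells were mouse embryonic fibroblasts, connective tissue cells cultured from embryos, all infected with an adenovirus that expresses LacZ, a bacterial enzyme gene often used as a control cargo. The celastrol culture received 250 nM of celastrol, a plant triterpenoid, for 7 h in DMEM with 1% serum. The DMSO culture received the solvent for the same time in the same medium. The sources used here do not state the mouse strain, embryo age or passage. Each condition was measured on 1 Affymetrix array, so no difference has a replicate check, no p-value or standard error can be given, and treatment, culture and array cannot be told apart.

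Wnt proteins are secreted, lipid-modified signals that bind Frizzled receptors on the cell surface. With Lrp5 or Lrp6 as co-receptor they stop the Axin-based destruction complex from degrading beta-catenin, which then enters the nucleus and acts with TCF/LEF factors. With other co-receptors such as Ror2 they act on cell shape and polarity without beta-catenin. Sfrp proteins carry a Frizzled-like domain and bind Wnts outside the cell, whereas Dkk1, Dkk2 and Dkk4 bind Lrp5 and Lrp6. In fibroblasts and other mesenchymal cells these signals take part in tissue patterning, matrix production and the choice between fat and bone cell fates.

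A subset of these ligands, receptors and antagonists had lower values with celastrol. Sfrp2, Fzd1, Wnt5a, Fzd2, Sfrp1, Fzd6, Fzd8, Dkk3 and Wnt16 were at least 1.5-fold lower, and Fzd3 alone was at least 1.5-fold higher. Values are deposited log2 levels, a difference is celastrol minus DMSO on that scale, and a fold is 2 raised to the size of the difference. A gene counted as detected when its value passed 5.73 in at least 1 array. That limit is the 95th percentile over the 1210 olfactory and vomeronasal receptor probe sets, which stand in for genes silent in fibroblasts. By this limit 39 of the 43 genes were detected, and the other 4 (Wnt2, Wnt2b, Wnt7a and Wnt8b) lay under it in both arrays. Among all genes measured, 13902 of 19946 were detected. Of the 39, 24 were lower by any amount and 15 higher, so that 61.5% were lower against 51.9% of all 13902 detected genes. By at least 1.5-fold 9 were lower, which is 23.1% against 4.68% of all detected genes. In the other direction 1 of 39 was at least 1.5-fold higher, against 6.19% of all detected genes. At 2-fold, Sfrp2 was the 1 lower gene (0.662% of all detected genes) and Fzd3 the 1 higher gene (1.88%), while Fzd1 and Wnt5a stood just inside that threshold. The median difference of the 39 genes was -0.07, near the -0.01 of all detected genes, because the larger negative values belonged to a subset. RNA came from whole cultures, so fewer cells of a type and less RNA per cell cannot be told apart.

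**Figure D1:**
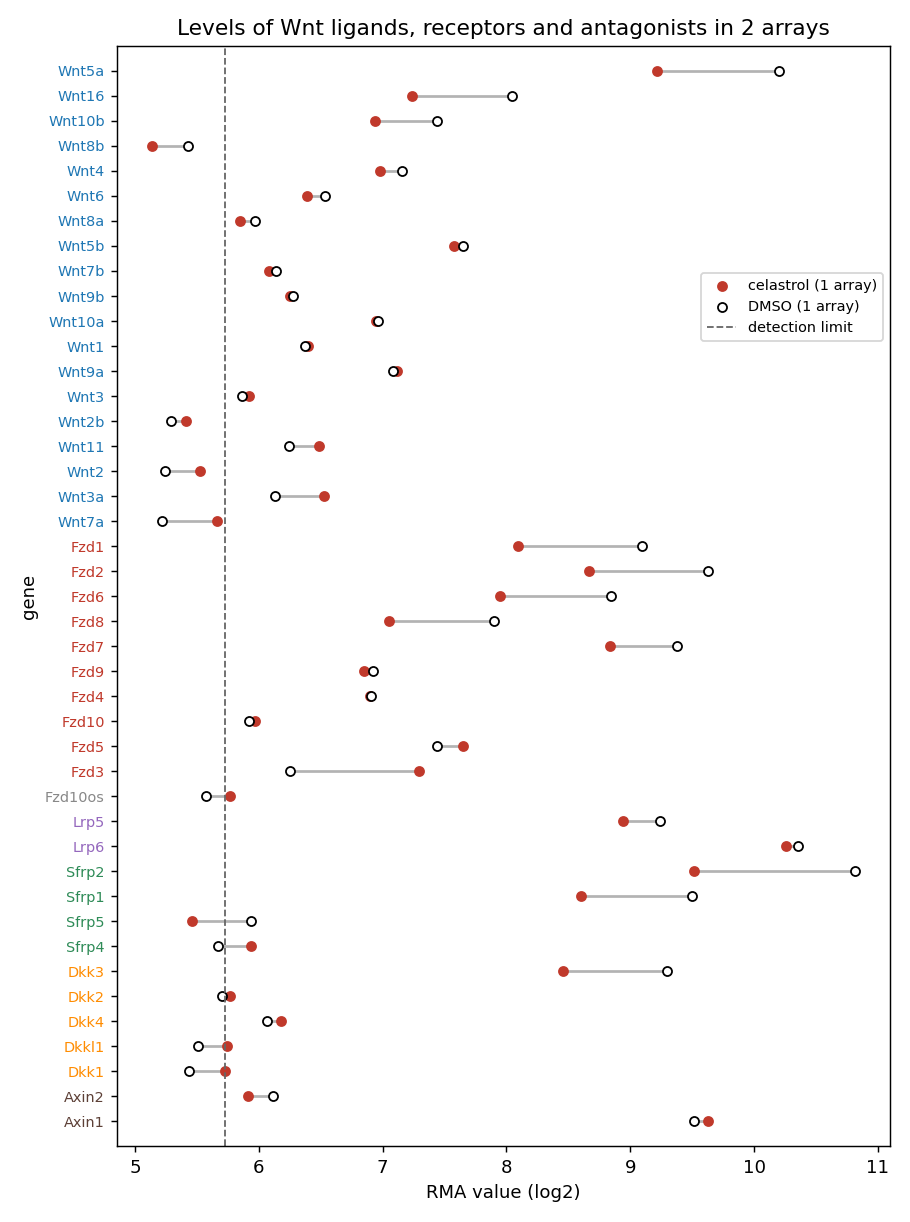
Log2 RMA value of each of the 43 genes (rows) with celastrol (filled points) and with DMSO (open points), 1 array each, with the detection limit of 5.73 as a dashed line. Rows run from Wnt ligands (top) through Frizzleds, Fzd10os, co-receptors, Sfrp and Dickkopf genes to the Axins, and the widest gaps with celastrol on the left are those of Sfrp2, Fzd1, Wnt5a and Fzd2.

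Brightness was looked at with a limit of 8 on the mean of both arrays, chosen after seeing the data. Of the 11 genes with a mean of at least 8 over both arrays, 10 were lower with celastrol. By at least 1.5-fold, 7 of them were lower, and the median difference of the 11 was -0.89. Among all 7586 genes of that brightness 55.3% were lower, 6.00% were at least 1.5-fold lower, and the median was -0.04. These 11 were Wnt5a, Fzd1, Fzd2, Fzd6, Fzd7, Sfrp1, Sfrp2, Dkk3, Lrp5, Lrp6 and Axin1, and Axin1 was the exception at 0.11. Fzd6, 1 of the 7, was under 8 with celastrol (7.95) and above it with DMSO (8.84). Of the 28 dimmer detected genes 14 were higher and 14 lower, with a median of 0.01, and Fzd8 and Wnt16 were the only ones at least 1.5-fold lower. Among all genes that dim, 47.8% were lower and 3.10% at least 1.5-fold lower. The array summary method compresses differences of dim probe sets, so a small value there does not show that a gene was steady. For 6 genes detected in 1 array alone the sign was set by the limit itself. Among the 33 genes above the detection limit in both arrays, a requirement also added after seeing the data, 23 were lower (69.7%, against 52.7% of all genes so detected) and 10 higher. The 9 that were at least 1.5-fold lower made 27.3% against 4.79%.

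**Figure D2:**
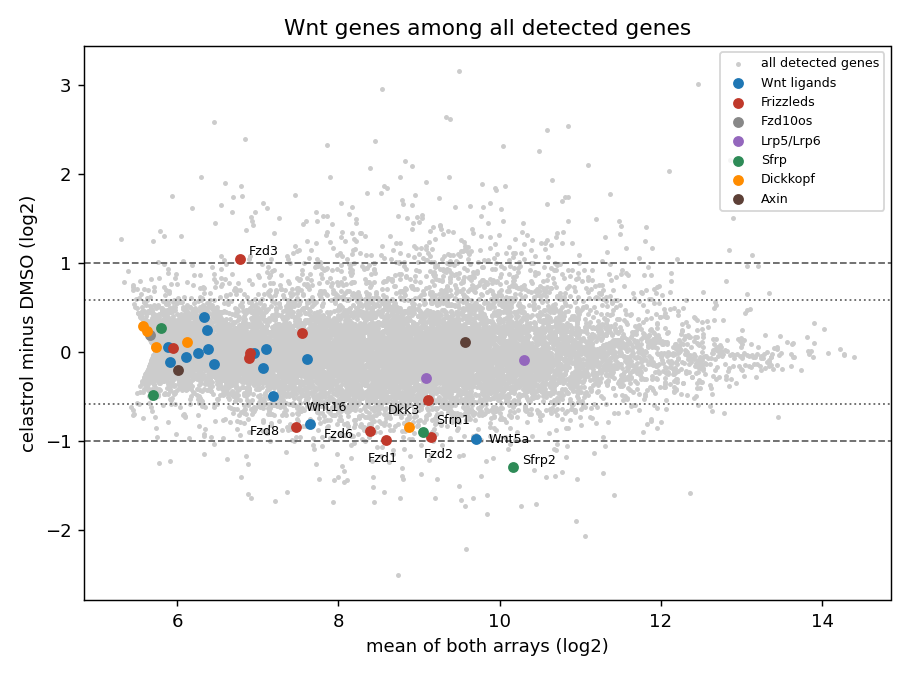
Difference (celastrol minus DMSO, log2) against the mean of both arrays (log2) for all 13902 detected genes in grey and the 39 detected Wnt, Frizzled, Lrp5/6, Sfrp, Dickkopf and Axin genes in colour. Dashed lines mark 2-fold and dotted lines 1.5-fold, and 7 of the 9 coloured points under the lower dotted line lie at a mean of at least 8.

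The 9 lower genes had RefSeq promoter windows (250 bases before the transcription start to 50 after it, build GRCm38.p6) in 3 cases, those of Sfrp2, Fzd1 and Wnt16, which are printed because these genes had lower values together. Sfrp2 is shown at chr3:83766071-83766370 (plus strand), Fzd1 at chr5:4758167-4758466 (minus strand) and Wnt16 at chr6:22287977-22288276 (plus strand), each 5′ to 3′, with capitals marking the only motif match found in them.
Sfrp2: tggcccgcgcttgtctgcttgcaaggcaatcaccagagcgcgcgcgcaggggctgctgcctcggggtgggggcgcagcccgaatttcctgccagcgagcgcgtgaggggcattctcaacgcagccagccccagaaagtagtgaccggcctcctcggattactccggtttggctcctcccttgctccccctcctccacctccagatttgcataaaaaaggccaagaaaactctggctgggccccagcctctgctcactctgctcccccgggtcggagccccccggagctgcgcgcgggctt
Fzd1: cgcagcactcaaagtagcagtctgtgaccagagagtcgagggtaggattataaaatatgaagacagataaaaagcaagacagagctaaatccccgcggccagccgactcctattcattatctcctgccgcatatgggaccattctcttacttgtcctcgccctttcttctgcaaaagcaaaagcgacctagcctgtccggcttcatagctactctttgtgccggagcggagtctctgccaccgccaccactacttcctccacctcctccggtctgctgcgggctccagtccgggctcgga
Wnt16: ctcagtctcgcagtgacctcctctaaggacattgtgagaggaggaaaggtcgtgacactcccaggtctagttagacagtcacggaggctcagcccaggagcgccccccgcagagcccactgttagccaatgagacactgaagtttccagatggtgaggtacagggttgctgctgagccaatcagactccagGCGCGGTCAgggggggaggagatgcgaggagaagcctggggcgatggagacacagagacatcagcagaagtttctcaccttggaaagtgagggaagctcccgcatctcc
Each window was searched on both strands for TCF/LEF (CTTTGAT), AP-1 (TGANTCA), the antioxidant response element (TGACNNNGC), the heat shock element (GAANNTTC, then NN, then GAA), the amino acid response element (TGATGNAAN), the E-box (CACGTG) and the Sp1 GC box (GGGCGG). The capitals in Wnt16 are an antioxidant response element in reverse orientation that starts 59 bases before the transcription start. That motif occurred in 12.4% of all 32851 promoter windows and in 6 of the 30 windows of the selected genes. Sfrp2 and Fzd1 held none of the 7 motifs, among which the GC box occurred in 35.7% of all windows, the TCF/LEF motif in 3.73%, AP-1 in 7.81%, the E-box in 7.15%, the amino acid response element in 3.95% and the heat shock element in 0.603%. Base composition differed between the printed windows, with 66.0% G and C for Sfrp2, 54.0% for Fzd1 and 58.0% for Wnt16. The median was 52.7% over all windows and 68.3% over the 30 windows of the selected genes. Of those 30 windows 22 held the GC box. A match is a description of these letters and no evidence of binding.

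Among the ligands, Wnt5a and Wnt16 had the largest negative differences. Wnt5a, the ligand best known for signalling through Ror2 in mesenchyme, stood at 9.22 with celastrol and 10.20 with DMSO. It was 1.98-fold lower, the 98th lowest of the 13902 detected genes. Wnt16, a ligand known for its effect on bone mass in mice, had 7.24 with celastrol and 8.05 with DMSO, a 1.75-fold lower value. Wnt10b, which keeps mouse preadipocytes from becoming fat cells, had 6.94 with celastrol and 7.44 with DMSO, 1.41-fold lower and so inside the 1.5-fold threshold. Wnt5b, the closest relative of Wnt5a, was at 7.57 with celastrol and 7.65 with DMSO, 1.06-fold lower.

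None of the other ligands reached 1.5-fold. Wnt3a, a classical activator of beta-catenin, had 6.53 with celastrol and 6.13 with DMSO and was the highest detected ligand by difference, at 0.39 or 1.31-fold. Wnt11, a ligand of the polarity branch, followed with 6.49 with celastrol and 6.24 with DMSO. Wnt4, a ligand of kidney and gonad development, was the only member with 2 probe sets, and they gave -0.18 and -0.37, both lower. Wnt6 (-0.14), Wnt8a (-0.12), Wnt7b (-0.06), Wnt9b (-0.02) and Wnt10a (-0.01) had small negative differences, and Wnt1 (0.03), Wnt9a (0.03) and Wnt3 (0.06) small positive ones. In all, 10 of 15 detected ligands were lower (66.7%, against 51.9% of all detected genes) and 5 higher, and their median difference was -0.06.

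Ligands under the limit included Wnt2, a lung mesenchyme signal, at 5.53 with celastrol and 5.24 with DMSO, and Wnt2b at 5.41 with celastrol and 5.29 with DMSO. Wnt7a had 5.66 with celastrol and 5.22 with DMSO, and Wnt8b 5.14 with celastrol and 5.43 with DMSO. No fold is given for these 4 genes, since neither array was above the limit. Several Wnt genes are neighbours in the genome. In GRCm38.p6, Wnt10b and Wnt1 are adjacent on chromosome 15, and their differences were -0.50 and 0.03. Adjacent pairs were also Wnt3a with Wnt9a (0.39 and 0.03) and Wnt9b with Wnt3 (-0.02 and 0.06) on chromosome 11, and Wnt6 with Wnt10a (-0.14 and -0.01) on chromosome 1.

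Of the 10 Frizzled receptors 4 were at least 1.5-fold lower (4.68% of all detected genes) and 1 was at least 1.5-fold higher (6.19% of all detected genes). Fzd1 had 8.10 with celastrol and 9.09 with DMSO, a 1.99-fold lower value and the 93rd lowest of all detected genes. Fzd2, from the same Frizzled subgroup as Fzd1 and Fzd7, had 8.67 with celastrol and 9.63 with DMSO and was 1.94-fold lower. Fzd7, the remaining gene of that subgroup, had 8.84 with celastrol and 9.38 with DMSO, 1.45-fold lower and just inside the 1.5-fold threshold. All receptors of that subgroup thus had lower values with celastrol, by 1.45-fold to 1.99-fold.

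Fzd3 and Fzd6, which act together in planar polarity of mouse hair and neurons, differed in opposite directions. Fzd6 had 7.95 with celastrol and 8.84 with DMSO and was 1.86-fold lower. Fzd3 had 7.30 with celastrol and 6.25 with DMSO and was 2.06-fold higher, above 98.3% of detected genes. The opposite signs rest on 1 probe set per gene, and the DMSO value of Fzd3 was near the limit of 5.73. Fzd8, a receptor of the beta-catenin branch, had 7.05 with celastrol and 7.90 with DMSO, 1.80-fold lower. Fzd5, its closest relative, had 7.65 with celastrol and 7.44 with DMSO, 1.15-fold higher.

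Fzd4, the receptor of the retinal vessel signal Norrin, showed the same level in both arrays within 0.01, at 6.90 with celastrol and 6.91 with DMSO. Fzd9 had 6.85 with celastrol and 6.92 with DMSO, and Fzd10 had 5.97 with celastrol and 5.92 with DMSO. Fzd10os, the noncoding gene named for its place opposite Fzd10, passed the limit with celastrol alone, at 5.76 with celastrol and 5.58 with DMSO. The median of the 10 Frizzleds was -0.30, and 7 were lower and 3 higher, where 51.9% of all detected genes were lower.

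The co-receptors differed little between the arrays. Lrp6 had 10.26 with celastrol and 10.35 with DMSO, 1.07-fold lower. Lrp5, in which loss-of-function mutations lower bone mass, had 8.94 with celastrol and 9.24 with DMSO, 1.22-fold lower. Both values lay inside the range from -0.42 to 0.41 that held the central 95% of receptor probe sets, a measure of scatter within these arrays that contains no variation between cultures and comes from dim probe sets.

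**Figure D3:**
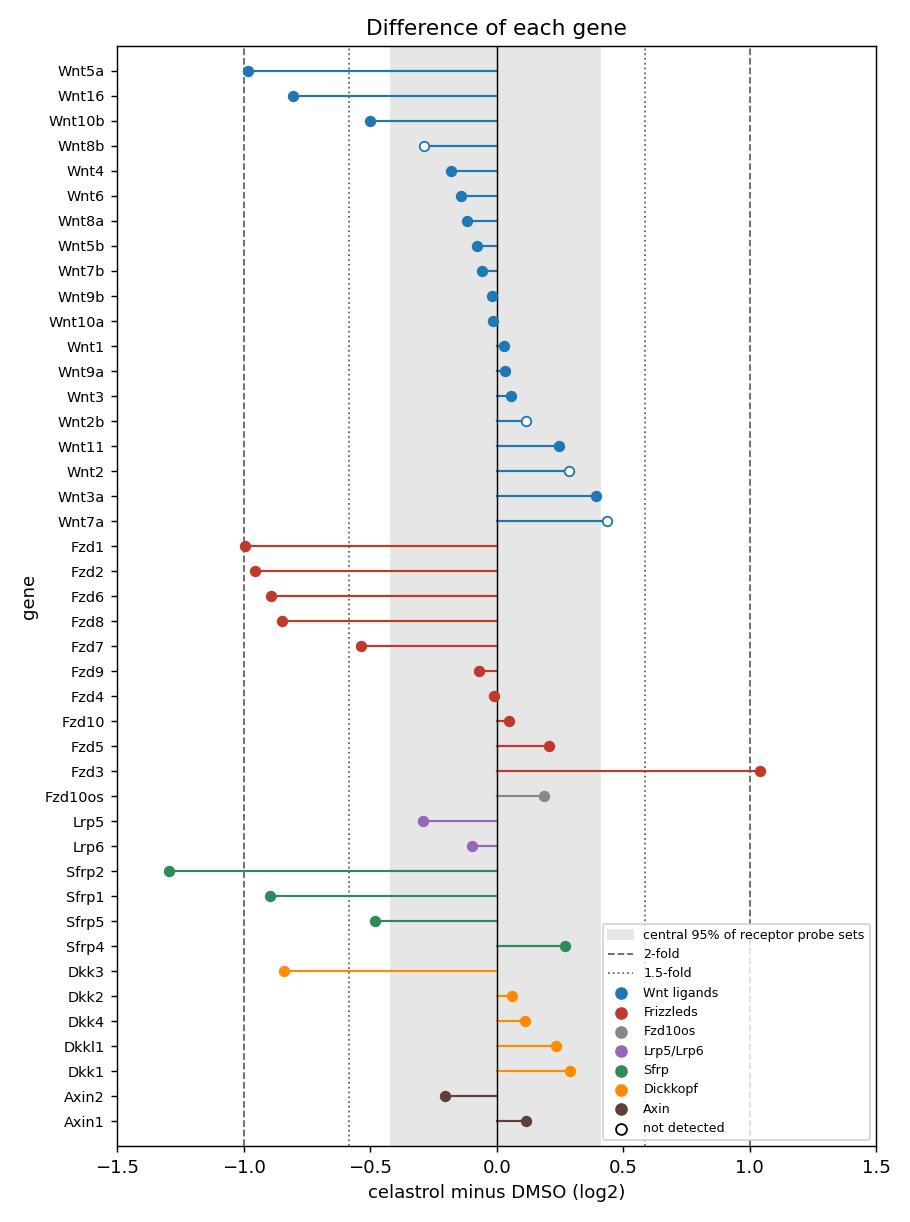
Difference (celastrol minus DMSO, log2) of each of the 43 genes, ordered within families, with the central 95% of olfactory and vomeronasal receptor probe sets shaded, 1.5-fold as dotted and 2-fold as dashed lines, and open points for genes under the detection limit. Sfrp2 lies past the lower 2-fold line and Fzd3 past the upper one, and 12 detected genes fall below the shaded range and 1 above it. Sfrp5, 1 of the 12, passed the limit with DMSO alone, and the other 11 were detected in both arrays.

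Of the secreted antagonists, Sfrp2 and Sfrp1 were lower with celastrol. Sfrp2, a fibroblast-secreted Wnt-binding protein, had 9.52 with celastrol and 10.81 with DMSO. It was 2.46-fold lower, the largest difference in either direction among the 43 genes and the 45th lowest of all detected genes. Sfrp1, its relative and also a Wnt-binding protein, had 8.60 with celastrol and 9.50 with DMSO, 1.86-fold lower. Sfrp5 and Sfrp4 lay near the limit. Sfrp5, an adipocyte product in mice, passed it with DMSO alone (5.46 with celastrol, 5.94 with DMSO), and Sfrp4, mutated in a human bone disorder, with celastrol alone (5.94 with celastrol, 5.67 with DMSO). Each passed the limit by 1.16-fold, and only in the array where it was higher, so no difference is drawn from these 2 genes.

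In the Dickkopf family Dkk3 was the only gene past 1.5-fold. Dkk3, a divergent member that is not a typical Lrp antagonist, had 8.46 with celastrol and 9.30 with DMSO, 1.79-fold lower. Dkk4 had 6.18 with celastrol and 6.07 with DMSO, 1.08-fold higher. Dkk1, the founding Lrp5 and Lrp6 antagonist, had 5.73 with celastrol and 5.44 with DMSO, Dkk2 5.76 with celastrol and 5.71 with DMSO, and Dkkl1, a testis gene, 5.75 with celastrol and 5.51 with DMSO. These 3 genes passed the limit with celastrol alone and by at most 1.03-fold over it, so no difference is drawn from them.

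Inside the cell, the Axins differed little. Axin1, the scaffold of the destruction complex, had 9.63 with celastrol and 9.51 with DMSO, 1.08-fold higher. Axin2, a feedback inhibitor transcribed when beta-catenin is active, had 5.91 with celastrol and 6.11 with DMSO, 1.15-fold lower and near the limit in both arrays. Over all families, 12 of the 39 detected genes fell below the central range of the receptor probe sets, against 10.5% of all detected genes. Above it lay 1, against 11.2%. Of the 33 genes detected in both arrays 11 fell below that range, against 1412 of all 13188 genes so detected. Above it lay 1 of the 33, against 1441 of the 13188.

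Other genes of the pathway, from 7 lists of extracellular, membrane, cytoplasmic and nuclear components and target genes, held 83 detected of 92 measured genes. Of these 83, 52 were lower (62.7%, against 51.9% of all detected genes) and 31 higher. Rspo4 and Nkd2 passed the limit in 1 array alone, so the limit itself set their signs. By at least 1.5-fold 7 were lower (8.43%, against 4.68%) and 2 higher (6.19% of all detected genes). Their median was -0.09. The lists were chosen with earlier results of these data known, and 8 genes stood in 2 of them. Tcf7 and Tiki1 were also listed but not analysed here.

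Secreted partners of the Wnt signal were among the lower genes. Rspo3, an R-spondin that raises Frizzled levels by removing the ubiquitin ligases Rnf43 and Znrf3, had 7.33 with celastrol and 8.28 with DMSO, 1.94-fold lower. Rspo2, with the same role, had 6.35 with celastrol and 7.13 with DMSO, 1.72-fold lower. Rspo1 had a smaller difference of -0.09. Rspo4 passed the limit with DMSO alone (5.62 with celastrol, 5.93 with DMSO), so no difference is drawn from it. The R-spondin receptor Lgr4 was 1.43-fold higher with celastrol and Znrf3 was 1.23-fold higher. In that list 5 of 8 detected genes, with Rspo4 counted, were lower (62.5%, against 51.9% of all detected genes) and 3 higher. The median of the 8 was -0.08.

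Genes for making and releasing Wnts showed no common direction. Wls, the carrier that takes Wnts to the surface, had 11.52 with celastrol and 11.24 with DMSO, 1.22-fold higher, and Porcn, the enzyme that adds their lipid, was 1.15-fold lower. Trabd2b, a protease that inactivates Wnts, had 6.65 with celastrol and 7.57 with DMSO, 1.88-fold lower, but its second probe set gave a difference of only -0.43. Gpc4, a glypican that binds Wnts, was 1.48-fold lower and Gpc6 1.07-fold lower, while Notum, which removes the lipid from Wnts, was 1.13-fold higher. Of 6 detected genes in that list 4 were lower (66.7%, against 51.9% of all detected genes).

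No other extracellular antagonist or modulator reached 1.5-fold. Kremen1, a partner of Dkk1, was 1.43-fold lower, Draxin, an axon guidance protein that binds Lrp6, 1.39-fold lower, and Sulf2, a heparan sulfatase, 1.37-fold lower. Sulf1 was 1.21-fold higher, Sost, an Lrp antagonist made by bone cells, 1.10-fold higher, and Kremen2 1.07-fold lower. Frzb, the Sfrp family member whose symbol fell outside the selection, was under the limit at 5.01 with celastrol and 5.09 with DMSO. In that list 6 of 8 detected genes were lower (75%, against 51.9% of all detected genes), with a median of -0.24.

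The alternative receptors of Wnt5a differed less than Wnt5a itself. Ror2 had 9.23 with celastrol and 9.26 with DMSO, 1.02-fold lower, and Ror1 had 7.40 with celastrol and 7.81 with DMSO, 1.32-fold lower. Ryk was 1.13-fold lower and Ptk7, a co-receptor of the polarity branch, 1.29-fold lower. Vangl2, a core polarity protein, was 1.15-fold lower and its relative Vangl1 1.07-fold higher. Prickle2, a cytoplasmic polarity protein, was the exception in size, with 7.41 with celastrol and 6.37 with DMSO, 2.06-fold higher. Daam1, an actin regulator of that branch, was 1.19-fold higher. In that list 7 of 11 detected genes were lower (63.6%, against 51.9% of all detected genes), with a median of -0.03.

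Cytoplasmic transducers were spread evenly around 0, with 11 higher and 12 lower of 23 and a median of -0.02. The 11 include Nkd2, which passed the limit with celastrol alone (5.84 with celastrol, 5.59 with DMSO). Of the whole list 52.2% were lower, against 51.9% of all detected genes. Ctnnb1, which encodes beta-catenin, had 12.63 with celastrol and 12.27 with DMSO, 1.28-fold higher. Dvl2, the adaptor that Frizzleds recruit, had 9.76 with celastrol and 8.83 with DMSO and was 1.91-fold higher, the only gene of that list past 1.5-fold. Its relatives went the other way, with Dvl1 at -0.24 and Dvl3 at -0.08. Of the destruction complex, Gsk3b was 1.10-fold higher, Gsk3a 1.24-fold lower and Apc 1.11-fold lower. Btrc, the ubiquitin ligase subunit that recognises beta-catenin, was 1.35-fold lower, the casein kinases Csnk1g2 and Csnk1g3 were 1.38-fold lower and 1.45-fold higher, and Tnks2, which marks Axin for degradation, was 1.29-fold higher.

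Nuclear effectors were lower in 11 of 14 cases (78.6%, against 51.9% of all detected genes), with a median of -0.33 beside -0.01 over all detected genes. By at least 1.5-fold 3 of the 14 were lower, against 4.68%. Tcf7l1, a TCF factor that acts mainly as a repressor, had 8.22 with celastrol and 9.04 with DMSO, 1.77-fold lower. Bcl9l, a beta-catenin coactivator, had 9.09 with celastrol and 9.85 with DMSO, 1.70-fold lower, and Tle5, a short Groucho family member, was 1.51-fold lower. Of the full-length Groucho corepressors, Tle1 was 1.37-fold, Tle3 1.14-fold and Tle4 1.08-fold higher, and Tle2 stood at -0.34.

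Target genes of beta-catenin had no common direction, with 8 higher and 11 lower of 19 detected and a median of -0.02. That is 57.9% lower, against 51.9% of all detected genes. Several lay close to the detection limit in both arrays, among them Cdx2 (5.75 with celastrol, 5.81 with DMSO) and Fgf20 (5.82 with celastrol, 5.85 with DMSO). Small differences there do not show that a gene was steady. Tnfrsf11b, which encodes osteoprotegerin, had 7.77 with celastrol and 8.61 with DMSO, 1.79-fold lower. Apcdd1, itself a Wnt inhibitor, was 1.29-fold lower and Ccn4, a matricellular protein, 1.26-fold lower. Bambi, a TGF-beta pseudoreceptor, was 1.48-fold higher, Myc 1.41-fold higher and Twist1, a mesenchymal transcription factor, 1.40-fold higher. Many of these genes answer to other pathways as well.

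**Figure D4:**
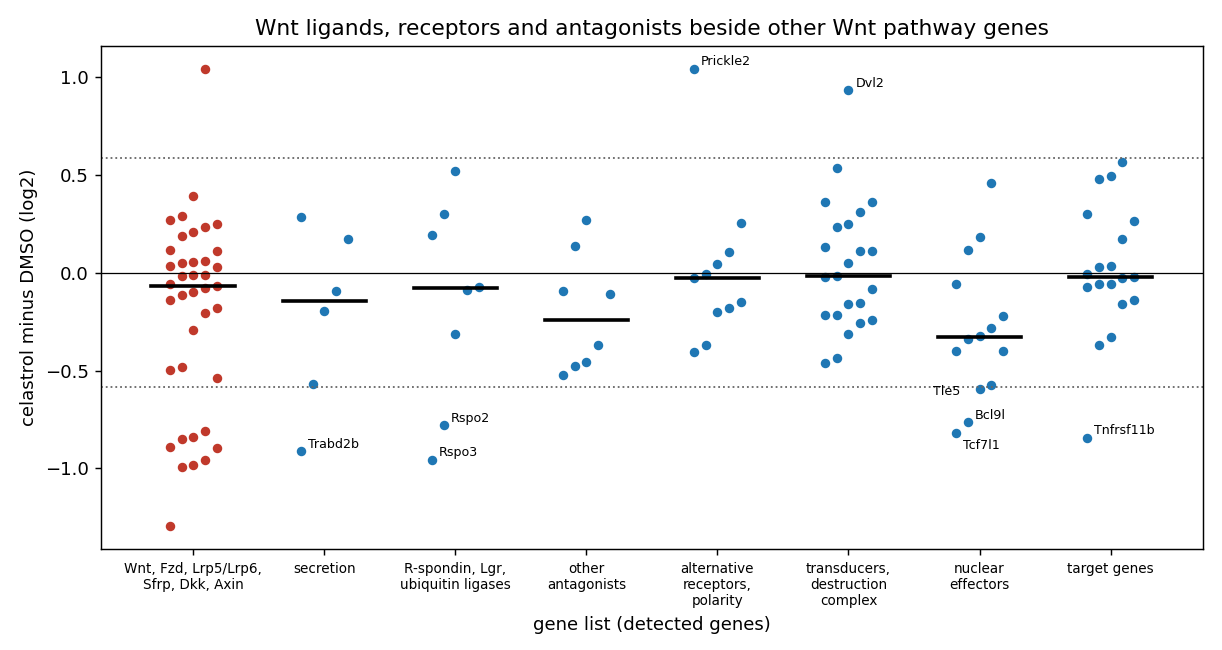
Difference (celastrol minus DMSO, log2) of every detected gene in 8 groups, with the Wnt, Frizzled, Lrp5/6, Sfrp, Dickkopf and Axin genes on the left in red and 7 lists of other pathway genes in blue, a black line at each median and dotted lines at 1.5-fold. The red group reaches lowest, to -1.30 for Sfrp2, and Prickle2 and Dvl2 are the 2 blue points above the upper dotted line.

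Markers of fibroblasts, the labelled cell type, had the highest mean level of the marker lists in both arrays, though not every gene was high. Of 17 fibroblast markers 15 were detected, led by Vim (13.95 with celastrol, 13.85 with DMSO), Fn1 (13.47 with celastrol, 13.42 with DMSO) and P4hb (12.29 with celastrol, 12.37 with DMSO), while Lum and Fap were under the limit. Thy1 was near the limit (6.02 with celastrol, 6.19 with DMSO). Col3a1 (7.97 with celastrol, 8.03 with DMSO) and Col5a1 (7.76 with celastrol, 7.79 with DMSO) were well under the leading genes. The mean level of the whole list was 9.84 with celastrol and 10.01 with DMSO. Of the 15 detected fibroblast markers 11 were lower with celastrol (73.3%, against 51.9% of all detected genes), with a median difference of -0.16. Past 1.5-fold were S100a4, a calcium-binding protein, with 10.26 with celastrol and 11.14 with DMSO, and Postn, a matrix protein, with 10.74 with celastrol and 11.35 with DMSO. The collagen genes Col1a1 (-0.46) and Col1a2 (-0.42) and the growth factor receptor gene Pdgfrb (-0.41) were lower by less, and Twist1 (0.48) and Pdgfra (0.27) were the highest of the list by difference. Markers of other cells had lower mean levels, from 5.87 (endothelial) to 6.56 (muscle) with celastrol and from 5.62 (macrophage and leukocyte) to 6.35 (muscle) with DMSO. Detected were 8 of 10 epithelial, 6 of 10 endothelial, 4 of 10 macrophage and leukocyte, 7 of 10 muscle and 6 of 9 neural markers. Over the whole array 13902 of 19946 genes were detected, so these counts alone do not show whether such cells were present. Some macrophage and muscle markers had the larger differences, with Cd68 at 1.47, Cd14 at 0.71, Csf1r at 0.26, Tnnt2 at 0.87, Tnnc1 at 0.77 and Tnni2 at 0.26. Of the 7 detected muscle markers 6 were higher and 1, Ckm (-0.26), was lower, where 51.9% of all detected genes were lower. Myod1 was at 0.34 and Actn2 at 0.08, and Des passed the limit with celastrol alone. Myog, Myh3 and Ttn were under the limit in both arrays. Of the macrophage and leukocyte list, Tyrobp (0.09) was also detected. Ptprc, Adgre1, Itgam, Fcgr1, Lyz2 and Laptm5 of that list were under the limit in both arrays. The brightest genes of the remaining lists lay between -0.41 for Map2, a neuronal protein, and 0.23 for Nes, an intermediate filament gene. They included Tubb3 (0.16), Cldn3 (-0.10), Krt8 (-0.04), Krt18 (0.01), Egfl7 (-0.17), Vwf (0.07) and Tie1 (0.03). The part of these markers in the Wnt gene differences was not tested.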

How the data were processed

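The labels' protocols describe Trizol extraction, column cleanup and biotin labelling with Ambion WT kits. The authors deposited log2 values made with RMA, per the submitters' processing notes. RMA corrects background, normalizes quantiles and summarises probe sets. Its version, and which arrays entered it, the sources used here do not give. Deposited values ran from 2.73 to 14.5, with medians of 6.35 (celastrol) and 6.33 (DMSO), and correlated at r = 0.988 across 35556 probe sets.

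GEO's platform annotation named 1 gene for 21797 probe sets, and only these were used. A gene took its probe set with the highest mean. RefSeq GRCm38.p6 gave current symbols for all 43 genes, promoter windows for 27 of them, and neighbouring genes. Every gene of the selection was named, and from the other lists up to 3 detected genes with the highest and 3 with the lowest difference, those past 1.5-fold and 10 genes fixed by name (others shown were chosen after their values were seen). Members and lists were chosen with earlier results of these data known. With 1 array per group nothing was tested, and the number of arrays limits the precision. Gene counting was run on simulated data with large planted differences and little noise. That checks the code, not how reliable the counts are here. Scripts ran in Python 3.11.15 (statsmodels 0.14.6, pandas 2.3.3, numpy 2.4.6).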

Additional observations from a re-analysis of the deposited data

How the results depend on the processing

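Counts of genes past a fold, medians and the 43 differences were recomputed with a gene's probe sets averaged, with both arrays quantile-normalized, after removing a lowess trend (0.3 of the genes per fit) or the median difference, and, for counts and medians, with the overall median as detection limit or without a limit. Each of these gave 9 genes at least 1.5-fold lower and 1 at least 1.5-fold higher. Of 172 recalculated differences 5 changed sign, in 3 genes whose size was at most 0.06, and none shifted by more than 0.10. With the lowess trend subtracted, 5 other pathway genes were at least 1.5-fold higher. Limiting genes to a mean of at least 8, a setting chosen after seeing the data, left 0 of 11 genes higher by 1.5-fold or 2-fold and a median of -0.89. It gave the R-spondin list a median of 0.41, which rested on Lgr4 and Znrf3 alone, since no R-spondin gene reached that mean. In the other pathway lists it left 4 lower and 1 higher genes past 1.5-fold. Requiring detection in both arrays, also chosen later, left these counts alike. No paired analysis was possible because each group has 1 array. Low signal limits most Wnt ligands, and no replicate measures the spread between cultures.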
